A study of Homo sapiens with 21 samples.

Results

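The question addressed here was what silencing of ARID1B adds to the chromatin of neuroblastoma cells in which ARID1A is silenced too. Of the 21 ATAC-seq libraries of the series, 12 bear on it: 3 libraries each of cells with an shRNA against ARID1A, shARID1A.2 or shARID1A.4, and 3 each of cells with shRNAs against both genes, shARID1A/B.2.3 or shARID1A/B.4.2. They were chosen by label alone. The combination names were read as the number of the ARID1A hairpin followed by that of the ARID1B hairpin, so that each combination was compared with the single silencing that carries its own ARID1A hairpin. The 2 resulting hairpin pairs, shARID1A/B.2.3 minus shARID1A.2 and shARID1A/B.4.2 minus shARID1A.4, share no library, and their mean is called the added effect. The cells of all groups were SK-N-BE(2), a human line established from a neuroblastoma. They were transduced with lentiviral shRNAs and collected after 72 h, and their labels differ only by hairpin and replicate number. Levels were thus compared between groups collected at the same time, and no order of events was observed. The remaining 9 libraries, from Control cells with a non-silencing hairpin and from cells with shARID1B.2 or shARID1B.3 alone, served to read ARID1B silencing on its own. The labels do not say whether cells with a single hairpin also received a control hairpin, so the loss of ARID1B and the presence of a second vector cannot be told apart. How far each hairpin lowered its target was not measured by this assay.

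ARID1A and ARID1B are large DNA-binding subunits of BAF, the form of the SWI/SNF chromatin remodeller that slides and evicts nucleosomes at enhancers. A BAF complex holds one paralog or the other, never both, and needs one of them for its ATPase module to join the core, so that cells which lose the first paralog rely on the second. In sympathetic neuroblastoma, enhancers of the adrenergic state are held open by a circuit of transcription factors that includes HAND2, GATA3, ISL1 and TBX2. ATAC-seq counts Tn5 insertions, which are frequent in open DNA and rare in nucleosomes.

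The 12 libraries held between 16140029 and 40953070 reads in 367900 sites, of which 357029 passed the filter on low counts. Replicates of every group differed by more than counting noise, with a chi-square of 1.08 to 2.51 per degree of freedom, the highest value being that of replicates 1 and 2 of shARID1A/B.2.3, the latter also the deepest of the 12 libraries. The cell line was checked at sites within 1 kb of the start of adrenergic genes. The HAND2 site held a median of 46.7 CPM over the 12 libraries (reads scaled to library size), GATA3 held 15.2, DBH 7.78 and TH 3.08, against a median of 12.8 CPM over all promoter sites. Of 10 genes of blood, epithelium, liver and mesenchyme, 3 had such a site, EPCAM at 9.66, APOB at 10.4 and CDH1 at 3.95 CPM, and the other 7, PTPRC and SPI1 among them, had none.

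The sequences below, from the GRCh38 reference and not from reads, are the central 300 bases of 5 sites to which the results return. The first 2 are the sites with the largest falls in both pairs, the next 2 are the strongest falls that hold a PHOX2-type paired homeodomain motif or an NFI palindrome, and the last is the largest rise. Capitals mark matches to the motifs searched. The BBOX1 site held none, the RP11-318I4.1 site TEAD and AP-1 letters, the ITM2A site the PHOX2-type motif and TEAD letters at 2 adjoining places, the LOC100287944 site the NFI palindrome, and the LOC100506937 site GATA letters and an E-box.
BBOX1 fall, chr11:27023023-27023322, plus strand: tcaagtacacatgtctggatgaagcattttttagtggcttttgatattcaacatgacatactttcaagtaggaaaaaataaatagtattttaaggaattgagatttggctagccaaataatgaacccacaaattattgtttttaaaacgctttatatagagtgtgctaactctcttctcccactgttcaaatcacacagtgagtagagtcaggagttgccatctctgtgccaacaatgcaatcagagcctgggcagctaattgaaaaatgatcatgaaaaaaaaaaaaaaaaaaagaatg
RP11-318I4.1 fall, chr4:125951426-125951725, plus strand: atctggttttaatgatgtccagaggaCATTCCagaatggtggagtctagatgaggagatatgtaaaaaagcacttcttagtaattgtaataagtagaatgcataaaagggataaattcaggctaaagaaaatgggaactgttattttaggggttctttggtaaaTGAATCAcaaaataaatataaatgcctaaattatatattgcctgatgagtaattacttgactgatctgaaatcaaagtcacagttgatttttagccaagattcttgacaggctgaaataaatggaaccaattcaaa
ITM2A fall, chrX:79550743-79551042, plus strand: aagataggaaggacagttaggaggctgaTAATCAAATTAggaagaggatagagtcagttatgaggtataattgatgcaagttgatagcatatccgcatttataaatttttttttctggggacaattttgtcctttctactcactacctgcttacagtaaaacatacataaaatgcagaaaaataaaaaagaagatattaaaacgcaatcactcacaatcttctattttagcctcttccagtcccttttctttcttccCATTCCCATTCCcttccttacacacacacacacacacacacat
LOC100287944 fall, chr12:106831527-106831826, plus strand: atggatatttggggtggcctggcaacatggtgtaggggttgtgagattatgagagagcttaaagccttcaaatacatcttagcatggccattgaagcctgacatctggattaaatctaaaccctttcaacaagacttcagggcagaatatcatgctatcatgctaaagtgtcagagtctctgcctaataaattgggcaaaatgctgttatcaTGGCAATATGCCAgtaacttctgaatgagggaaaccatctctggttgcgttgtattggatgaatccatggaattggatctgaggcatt
LOC100506937 rise, chr7:132830802-132831101, plus strand: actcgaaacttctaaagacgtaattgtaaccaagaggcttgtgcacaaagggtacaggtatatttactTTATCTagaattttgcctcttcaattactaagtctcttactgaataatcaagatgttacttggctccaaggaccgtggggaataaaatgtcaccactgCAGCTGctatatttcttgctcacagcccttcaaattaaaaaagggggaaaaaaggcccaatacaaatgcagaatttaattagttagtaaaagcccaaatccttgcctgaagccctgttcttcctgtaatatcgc

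With ARID1A silenced, adding ARID1B silencing closed far more sites than it opened. In the mean of both pairs 12156 sites were lower (3.40% of those tested) and 1223 were higher (0.343%), with sites called by quasi-likelihood F-tests in edgeR (FDR below 0.01), so that 90.9% of the called sites had lost accessibility. The fall had a median of -0.61 and the rise of 0.48 on the log2 scale, against a median of 0.01 over all sites, and 1232 sites fell by at least 1. The lower sites lay nearest 6243 genes and the higher ones nearest 987. In shARID1A/B.2.3 minus shARID1A.2, 10428 sites were lower (2.92%) and 1289 higher (0.361%). In shARID1A/B.4.2 minus shARID1A.4, 5825 were lower (1.63%) and 1105 higher (0.309%). Of the 12156 lower sites, 7462 had all 3 combination libraries below all 3 shARID1A libraries in both pairs, as did 10170 of all tested sites (2.85%). Without replicate 2 of shARID1A.2 and of shARID1A/B.2.3, the libraries that stood apart in the first pair, 9944 sites were lower and 770 higher in the mean, and 6605 lower and 537 higher in the first pair.

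The 2 pairs, which used different hairpins for both genes, shared 1992 closed sites and 59 opened ones. Accessibility was lower in both pairs at 1992 sites near 1604 genes, 19.1% of those lower in the first pair and 34.2% of those lower in the second, where 1.63% and 2.92% of all sites were lower. Of the sites lower in the first pair, 77.6% fell in value in the second, with a median of -0.27. The 59 sites higher in both pairs were 4.58% of the rises of the first pair and 5.34% of those of the second, where 0.309% and 0.361% of all sites were higher. Both overlaps were above the share of all sites, and the rises were fewer to begin with. More of the rises of one pair were called lower in the other. Of the sites higher with shARID1A/B.2.3, 158 (12.3%) were lower with shARID1A/B.4.2, against 1.63% of all sites, and 137 (12.4%) were the reverse, against 2.92%. Across 357029 sites, all measured in the same libraries and so not independent, the log2 changes of the pairs had a Pearson r of 0.15.

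**Figure D1:**
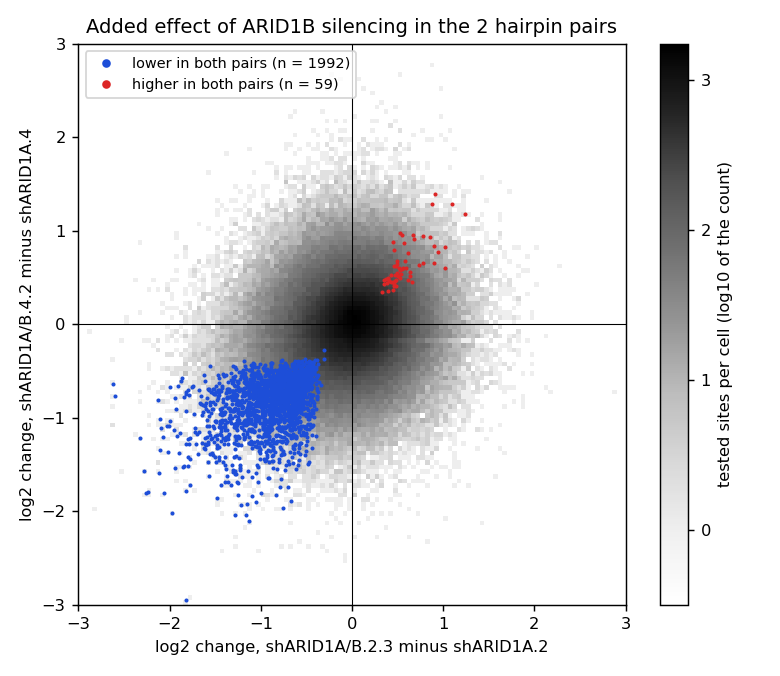
Log2 change at each tested site in the pair shARID1A/B.2.3 minus shARID1A.2 (x axis) against the pair shARID1A/B.4.2 minus shARID1A.4 (y axis), with shading for the number of sites per cell on a log10 scale. The 1992 sites lower in both pairs (blue) fill the lower left, and the 59 in red were higher in both.

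At the 1992 sites lower in both pairs, levels were also lower with ARID1A silenced alone than in Control. The median over these sites was 9.91, 9.64 and 9.62 CPM in the 3 Control libraries. It was 6.43, 6.09 and 6.47 with shARID1A.2 and 3.5, 3.33 and 3.52 with shARID1A/B.2.3. It was 7.39, 7.16 and 7.08 with shARID1A.4 and 4.12, 4.1 and 4.08 with shARID1A/B.4.2. Every combination library was therefore below every shARID1A library, which the choice of these sites fixes, and every shARID1A library was below every Control library, which it does not. Silencing of ARID1B alone left medians between 7.01 and 7.22 CPM with shARID1B.2 and between 5.50 and 5.71 with shARID1B.3. At the 59 sites higher in both pairs the group median was 9.40 CPM in Control, 10.5 with shARID1A.2, 15.0 with shARID1A/B.2.3, 8.47 with shARID1A.4 and 13.2 with shARID1A/B.4.2. Over all tested sites the group medians stayed between 1 and 1.04 CPM.

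**Figure D2:**
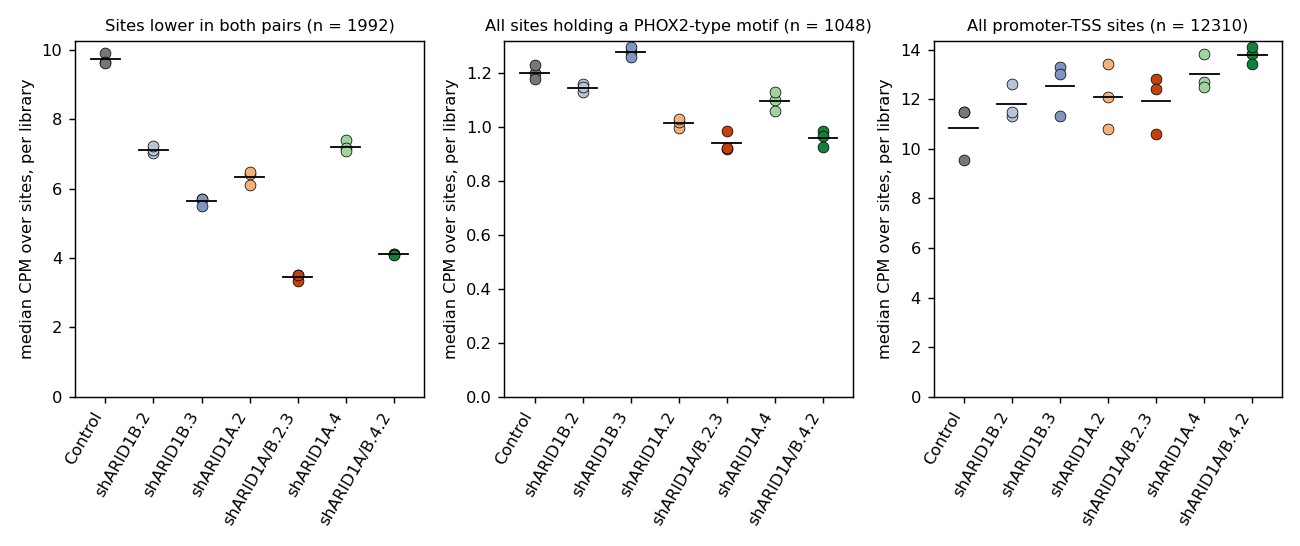
Median CPM over a set of sites in each of the 21 libraries (points, with the group mean as a bar), for the sites lower in both pairs, all sites with a PHOX2-type motif and all promoter-TSS sites. In the first set the combinations lie between 3.33 and 4.12 CPM and the shARID1A groups between 6.09 and 7.39, while at promoters each combination overlaps its shARID1A group.

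Many of the sites closed by ARID1A silencing were lower still in the combinations. Since a pair shares its shARID1A libraries with the effect of that hairpin, each pair was read at sites called with the other ARID1A hairpin. Of the sites lower with shARID1A.4 against Control (4.17% of those tested), 33.9% were lower again in the pair built on shARID1A.2 and 89.9% fell in value, against 2.92% and 47.7% of all sites. Of the sites lower with shARID1A.2 (4.54%), 19.4% were lower again in the pair built on shARID1A.4 and 82.0% fell in value, against 1.63% and 49.6%.

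By raw share of called sites, the added effect overlapped more with ARID1B silencing by its own hairpin than by the other. The exception was the falls of the shARID1A/B.4.2 pair, an order that turned with GC content offsets (37.8% for its own hairpin and 37.4% for the other). ARID1B silencing alone was measured in libraries that neither pair contains. With shARID1B.3 alone 17435 sites were lower than in Control (4.88%) and 11135 higher (3.12%), and with shARID1B.2 alone 6563 were lower (1.84%) and 4775 higher (1.34%). Of the sites lower in the shARID1A/B.2.3 pair, 71.2% were also lower with shARID1B.3 alone, the same ARID1B hairpin, and 23% with shARID1B.2. These raw shares stand against 4.88% and 1.84% of all sites, so part of their distance reflects the number of calls with each hairpin. Of the sites higher in that pair, 43.4% were higher with shARID1B.3 alone and 6.13% with shARID1B.2. Of the sites higher in the shARID1A/B.4.2 pair, 59.2% were higher with shARID1B.2 alone and 14.6% with shARID1B.3. Falls in this pair were less tied to the hairpin: 31.5% were lower with shARID1B.2 and 38.8% with shARID1B.3, the hairpin with more falls in all, while 9.15% were higher with shARID1B.3. Across sites the Pearson r of a pair with its own ARID1B hairpin alone was 0.29 and 0.20, and with the other hairpin 0.07 and 0.06. Depth differed too, and deeper libraries allow more calls. The shARID1B.3 libraries held 36799314, 44472230 and 23104850 reads in sites, and those of shARID1B.2 21134048, 18001445 and 21634157. With libraries thinned to equal depth, the own hairpin had the larger overlap in 3 of 4 comparisons, as in the main fit. Different hairpins can differ in how far they silence and in which other transcripts they reach, and neither was tested.

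**Figure D3:**
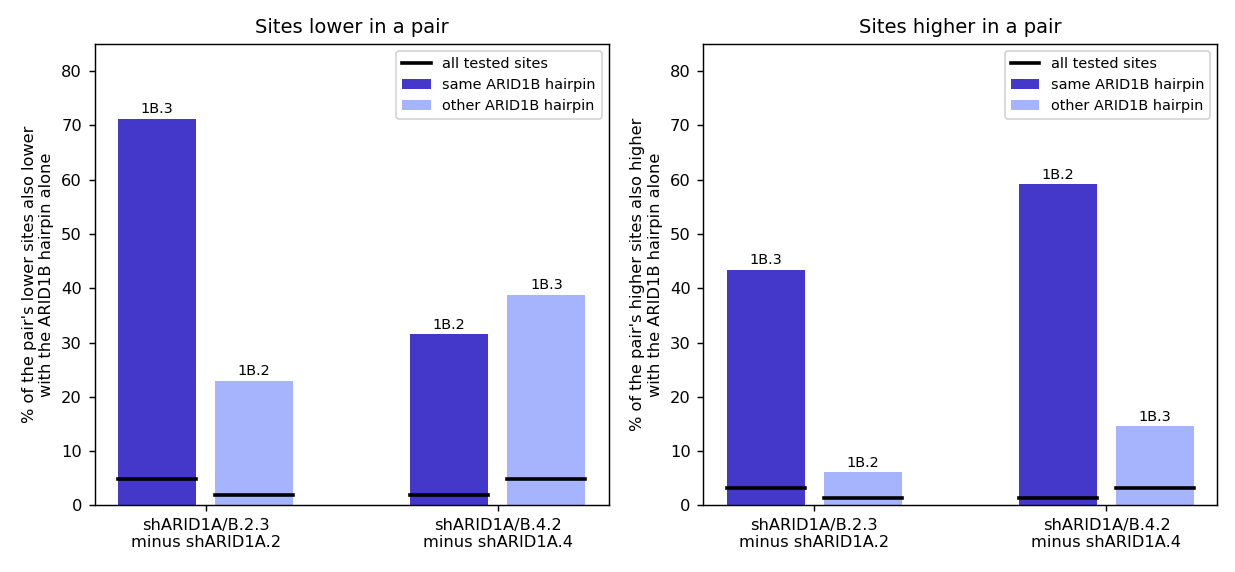
Percent of the sites lower (left) or higher (right) in each hairpin pair that were also lower or higher with an ARID1B hairpin alone against Control, for the hairpin of the pair (dark bars) and the other hairpin (light bars), with the share of all tested sites as black lines. Own-hairpin bars reach 71.2% and 59.2% and exceed the other bar except for the falls of the shARID1A/B.4.2 pair, where GC content offsets turn the order.

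Set against ARID1B silencing in cells with ARID1A intact, the added effect was of like direction at most of its sites. The mean of both ARID1B hairpins against Control lowered 12618 sites (3.53%) and raised 4973 (1.39%). The rises numbered 2510 without Control replicate 2 and 2099 with scaling on promoter sites, which also took the falls to 20590. Of the 12156 sites lower in the added effect, 5944 (48.9%) were also lower with ARID1B silencing alone, 64 were higher and 88.7% fell in value. Of the 1223 sites higher in the added effect, 374 (30.6%) were also higher with ARID1B silencing alone and 3 were lower. Those 374 were 7.52% of the rises with ARID1B silencing alone, against 0.343% of all sites higher in the added effect. The difference between the effects was tested as an interaction. The added effect was lower than the effect alone at 1343 sites (0.376%) and higher at 501 (0.140%). This balance depended on the scaling and turned to 708 lower and 836 higher with scaling on promoter sites. Without Control replicate 3 the lower sites numbered 889, and without Control replicate 1 the higher ones 320. The 1343 sites had a median added log2 change of -0.46 and a median change alone of 0.42, and 589 of them were opened by ARID1B silencing alone. At the 501 sites the median was -0.21 added and -1.07 alone, and 468 were closed by ARID1B silencing alone. Among the 12156 lower sites, 700 (5.76%) departed lower, against 0.376% of all sites. The departure contains both effects, so the choice of sites favours these counts and medians. A site in an intron of ITGA4, the integrin alpha-4 gene, is one of the 501. It held 3.70, 3.53 and 3.17 CPM in Control, 0.53, 0.51 and 0.63 with shARID1B.3, and 0.81, 0.73 and 0.51 with shARID1B.2. It held 1.40, 1.34 and 1.08 CPM with shARID1A.2 and 0.33, 0.53 and 0.57 with shARID1A/B.2.3, but 0.55, 0.79 and 0.50 with shARID1A.4 and 0.54, 0.60 and 0.46 with shARID1A/B.4.2. All libraries with any ARID1 hairpin were below Control, and the groups of the second pair overlapped. Its added change was 1.68 ± 0.29 (SE) above that of ARID1B silencing alone (FDR = 0.000118).

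Of the lower sites most were intronic or intergenic, and promoters were a larger part of the higher sites than of the lower ones. Introns held 51.6% of the lower sites and 43.1% of all tested sites, and intergenic DNA 44.0% and 48.7%. Promoter-TSS sites were 1.25% of the lower sites (152 sites), 15.9% of the higher ones (195 sites) and 3.45% of those tested. Their share of the higher sites ranged from 9.53% to 28.9% when 1 library was left out. Promoters are the most accessible sites, and the power to call a site rises with its reads, so classes were compared at like level. In the highest decile of CPM, 19.5% of 13063 intronic and 20.1% of 10025 intergenic sites were lower, but 0.968% of 8474 promoters. In the same decile 2.05% of promoters, 1.23% of intronic and 2.02% of intergenic sites were higher, so that promoters and intergenic DNA hardly differed in rises at this level. The median over all 12310 promoters was 13.4, 10.8 and 12.1 CPM in the shARID1A.2 libraries and 12.8, 10.6 and 12.4 with shARID1A/B.2.3, and 13.8, 12.7 and 12.5 with shARID1A.4 and 13.8, 13.4 and 14.1 with shARID1A/B.4.2. Of the 20.0% of sites lowest in GC content 7.89% were lower, and of the 20.0% highest in it 1.57%.

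**Figure D4:**
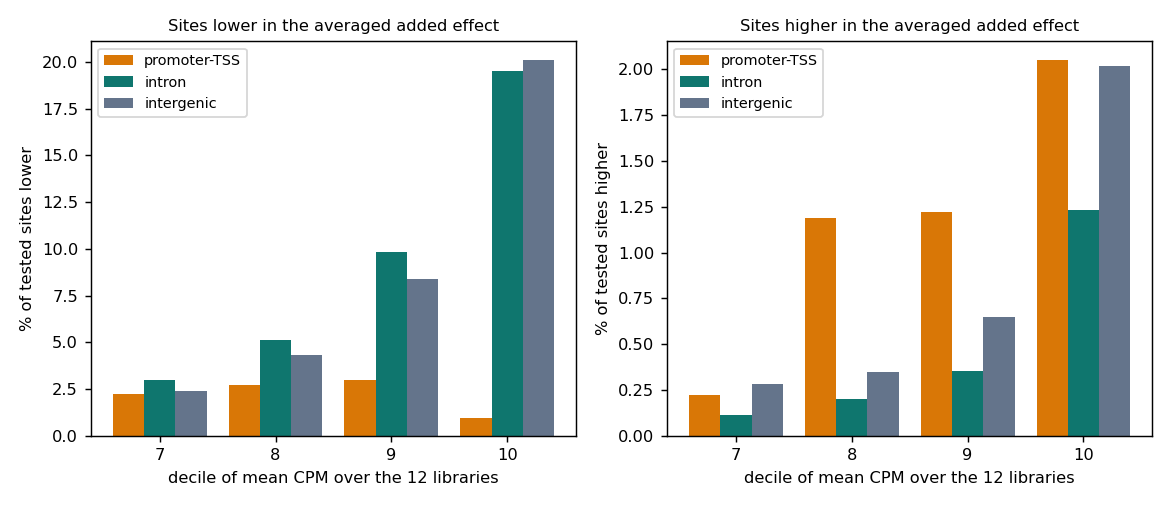
Percent of tested sites lower (left) or higher (right) in the added effect, for promoter-TSS, intronic and intergenic sites in the upper 4 deciles of mean CPM over the 12 libraries, on separate axes that start at 0. In decile 10, 19.5% of intronic, 20.1% of intergenic and 0.968% of promoter sites were lower.

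The share of reads was compared without any call on single sites. Promoters held 23.98%, 21.74% and 22.46% of reads with shARID1A.2, and 24.02%, 23.37% and 23.58% with shARID1A/B.2.3. They held 24.14%, 23.41% and 22.86% with shARID1A.4, and 25.01%, 24.84% and 25.06% with shARID1A/B.4.2. The groups overlapped in the first pair and not in the second. The combinations gained 1.22 percentage points in the mean of both pairs, by an exact two-sided permutation test within pairs with 400 arrangements (p = 0.015, adjusted over 5 classes 0.0375), a call lost without any of 8 single libraries. Introns lost 1.06 points by the same exact permutation test (p = 0.005, the smallest this design can give, adjusted 0.025), with every combination library below every shARID1A library in each pair. Permuted within replicate numbers both calls were lost (exact p = 0.0312, adjusted 0.0521). That p is the smallest this permutation can give, so a loss after adjustment over 5 classes says little about either share. The intron call was also lost without shARID1A/B.2.3 replicate 1 (adjusted p = 0.05). Exons gained 0.34 points by the same test (adjusted p = 0.0417), a call also lost when permuted within replicate numbers. Intergenic DNA changed by -0.49 points (adjusted p = 0.362) and transcription termination sites by -0.01 (adjusted p = 0.73). All shARID1A libraries stood above the Control range of 19.98% to 20.58% at promoters.

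Motif letters differed between closed and other sites, and between pairs. Motifs were searched on both strands in the central 300 bases, by name for PHOX2-type, NFI and CTCF and by letters for the others, and a site could hold several. The letters were AGATAA for GATA. They were TGANTCA for AP-1, GGAATG for TEAD and CAGCTG for the E-box. SP/KLF letters were GGGCGG. The GATA letters, bound by factors such as GATA3, were in 27.8% of the lower sites and 17.0% of all sites. The PHOX2-type motif, a paired homeodomain motif, was in 1.06% of the lower and 0.294% of all sites, and the NFI palindrome in 0.477% and 0.128%. AP-1 letters were in 14.9% and 10.9%. CTCF, which marks insulators, was in 0.222% of lower sites and 0.901% of all sites, and SP/KLF letters in 5.11% of lower, 20.9% of higher and 9.06% of all sites. TEAD letters, at 16.9% and 16.8%, and the E-box, at 16.5% and 17.6%, hardly differed in share. Restricted to sites outside promoters in the upper 3 deciles of CPM, the PHOX2-type motif was in 0.869% of lower sites and 0.319% of all such sites, and GATA in 27% and 16.9%. Lower sites were also poorer in GC content than all sites. Of the fifth of sites lowest in GC content 7.89% were lower, and of the fifth highest in it 1.57%. Motif shares were not compared at like GC content, so how far they follow base composition was not tested. A match is a description of the letters and not evidence of binding.

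Of the 1048 tested sites with a PHOX2-type motif, 129 (12.3%) were lower in the added effect and 2 higher. In the shARID1A/B.4.2 pair 110 of them (10.5%) were lower, where 1.63% of all sites were, and in the shARID1A/B.2.3 pair 56 (5.34%), where 2.92% were. The order was reversed for AP-1, with 1.80% of its 38938 sites lower in the former pair and 4.72% in the latter. With the ARID1A hairpins that the pairs start from, 16.9% of the PHOX2-type sites were lower with shARID1A.2 against Control and 8.59% with shARID1A.4. Over all 1048 sites the median level was 1.18 to 1.23 CPM in Control, 0.996 to 1.03 with shARID1A.2, 0.92 to 0.99 with shARID1A/B.2.3, 1.06 to 1.13 with shARID1A.4 and 0.93 to 0.99 with shARID1A/B.4.2. The combinations lay below their shARID1A groups in both pairs, and below the Control libraries. With ARID1B silenced alone the range was 1.13 to 1.16 for shARID1B.2 and 1.26 to 1.30 for shARID1B.3, so that shARID1B.3 alone was above Control at these sites.

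The ITM2A site of the sequence above, an intergenic site 183340 bases upstream of its gene, was one of them but did not follow that median. It held 3.25, 3.37 and 3.26 CPM with shARID1A.4 and 0.67, 0.69 and 0.93 with shARID1A/B.4.2, a 4.30-fold fall (FDR = 5.42e-12). It held 0.996, 1.10 and 1.26 CPM with shARID1A.2 and 0.59, 0.51 and 0.40 with shARID1A/B.2.3, a 2.19-fold fall (FDR = 0.00201). Control held 1.06, 1.52 and 1.60. The site was thus above Control with shARID1A.4, where the median over the motif's sites was lower, and below Control with shARID1A/B.4.2. It was not called with ARID1B silencing alone, with a log2 change of -0.33 ± 0.19 (SE, FDR = 0.357), and the departure was -1.29 ± 0.26 (FDR = 0.00147). The LOC100287944 site with the NFI palindrome, in an intron of RIC8B, was below Control with each ARID1A hairpin and lower again in each combination. It held 4.57, 4.27 and 4.33 CPM in Control, 1.77, 2.40 and 2.07 with shARID1A.2 and 1.35, 0.98 and 0.97 with shARID1A/B.2.3. It held 2.88, 2.77 and 1.82 with shARID1A.4 and 1.43, 1.29 and 1.44 with shARID1A/B.4.2. Both pairs lost about as much, 1.90-fold and 1.83-fold (FDR = 0.000623 and 0.0031).

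Of the 8 largest falls called in both pairs, none lay in a promoter, and the nearest to a start site was 3831 bases upstream of TBC1D23. The strongest was an intergenic site of 1189 bases, 23218 bases upstream of BBOX1, which encodes the enzyme of the last step of carnitine synthesis. It held 4.12, 3.37 and 4.22 CPM with shARID1A.2 and 0.76, 0.88 and 0.75 with shARID1A/B.2.3, a 4.79-fold fall (FDR = 1.22e-17). It held 8.06, 8.09 and 8.27 CPM with shARID1A.4 and 2.42, 2.30 and 2.23 with shARID1A/B.4.2, a 3.5-fold fall (FDR = 9.65e-17). No combination library reached any shARID1A library, which the choice of these sites required. Against 6.26, 7.15 and 6.73 CPM in Control, shARID1B.3 alone left 1.09, 1.28 and 1.26 and shARID1B.2 alone 2.65, 3.16 and 3.17, a mean log2 change of -1.82 ± 0.12 with ARID1A intact, and the departure of the added effect from it was -0.22 ± 0.17 (SE, FDR = 0.619). The second, 112596 bases upstream of RP11-318I4.1 and holding AP-1 letters, held 4.75, 4.35 and 4.85 CPM with shARID1A.2 and 0.82, 1.21 and 0.79 with shARID1A/B.2.3. It held 4.35, 4.02 and 3.82 with shARID1A.4 and 1.12, 0.97 and 1.44 with shARID1A/B.4.2. Its mean log2 change was -2.02 ± 0.14 (SE, FDR = 2.04e-21). The other 6 were near MLK7-AS1, AC011609.3, TBC1D23, HHAT (which palmitoylates hedgehog ligands), PANDAR and RNF219-AS1, with mean log2 changes from -1.93 to -1.69, and all 8 were also called lower with ARID1B silencing alone.

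Rises called in both pairs were smaller. The largest, in an intron of CHCHD3 and nearest LOC100506937, held 1.18, 0.98 and 1.08 CPM with shARID1A.2 and 2.72, 2.23 and 2.77 with shARID1A/B.2.3. It held 0.96, 1.80 and 1.38 CPM with shARID1A.4 and 3.18, 2.58 and 3.62 with shARID1A/B.4.2. The groups did not overlap in either pair, which the choice of these sites required, and the mean log2 change was 1.21 ± 0.14 (SE, FDR = 1.20e-10). Control held 3.42, 2.88 and 2.97 CPM, so that this site was lower with ARID1A silenced alone and at about the Control level in the combinations. A site in an intron of RGS13, a regulator of G protein signalling, held 12.7, 12.8 and 11.7 CPM with shARID1A.2 and 21, 27 and 23.5 with shARID1A/B.2.3, and 7.78, 7.16 and 8.14 with shARID1A.4 and 13.1, 12.8 and 13.6 with shARID1A/B.4.2. It did not pass the test with ARID1B silencing alone (log2 change 0.16 ± 0.10, FDR = 0.367), and the departure did, at 0.70 ± 0.12 (FDR = 0.000233). The other 6, near LOC100507403, AC017060.1, RAPGEF2, PKHD1, MAB21L1 and LINC00378, had mean log2 changes from 0.87 to 1.19.

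**Figure D5:**
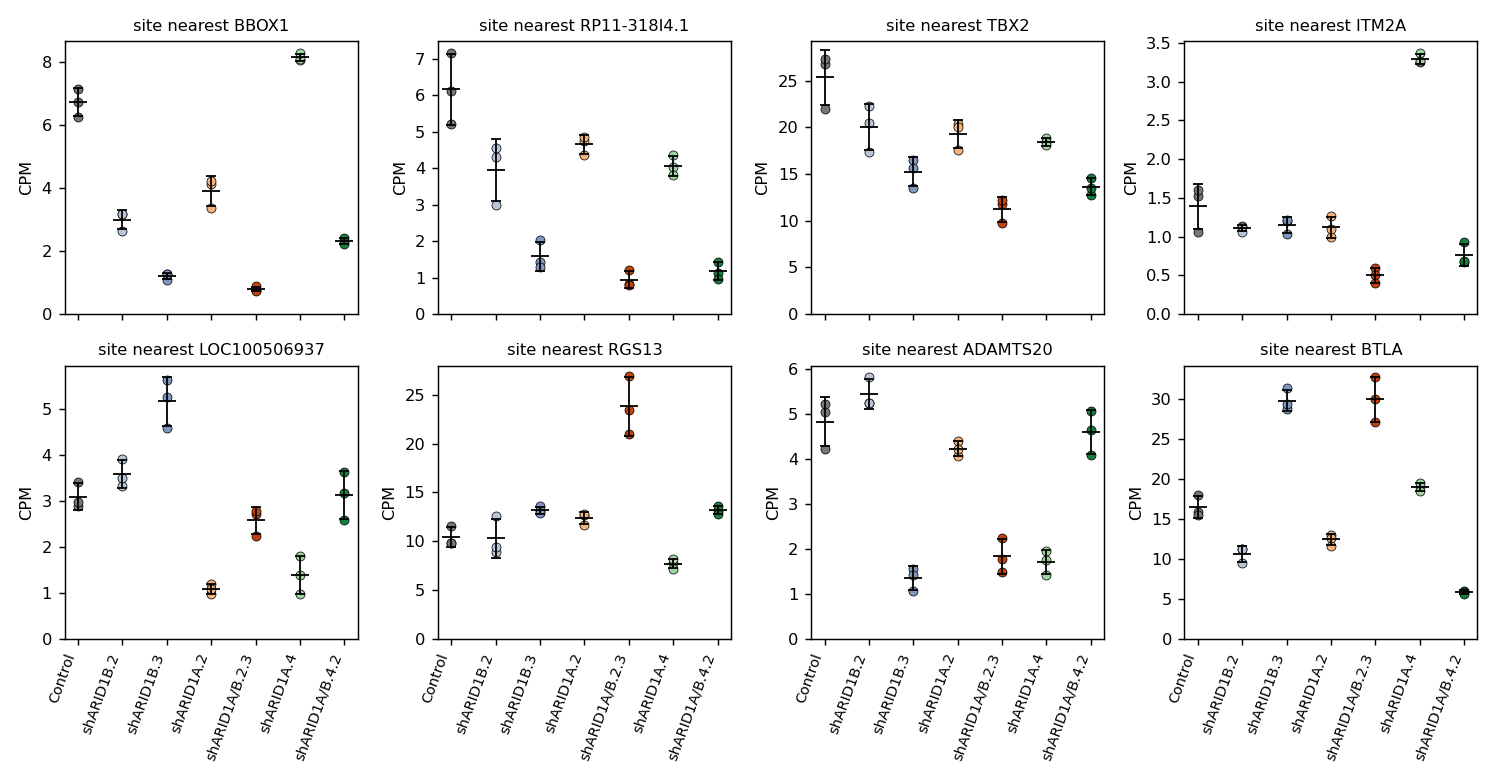
CPM in each of the 21 libraries (points) with the group mean and SD (bars) at 8 sites named by their nearest gene, with control and ARID1B groups at the left and each combination at the right of its shARID1A group. BBOX1, RP11-318I4.1, TBX2 and ITM2A fall in both pairs, LOC100506937 and RGS13 rise in both, and ADAMTS20 and BTLA move in opposite directions.

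The added effect differed between the pairs, lower with shARID1A/B.2.3 at 2510 sites (0.703%) and lower with shARID1A/B.4.2 at 1619 (0.453%). At an intergenic site near BTLA, a lymphocyte receptor gene, levels were 11.6, 13.0 and 12.6 CPM with shARID1A.2 and 27.1, 32.7 and 30.0 with shARID1A/B.2.3, but 18.9, 18.4 and 19.4 with shARID1A.4 and 5.96, 5.89 and 5.52 with shARID1A/B.4.2. The same was seen without ARID1A silencing: from 15.8, 18.0 and 15.5 CPM in Control the site rose to 28.7, 31.3 and 29.3 with shARID1B.3 and fell to 11.2, 9.48 and 11.2 with shARID1B.2. A site near ADAMTS20, a secreted metalloproteinase gene, went the other way, from 4.39, 4.06 and 4.22 to 1.48, 1.77 and 2.24 CPM in the first pair and from 1.42, 1.76 and 1.94 to 5.06, 4.65 and 4.08 in the second. An intronic site of FAN1 nearest HERC2P10 was at 6.68 to 7.39 CPM with shARID1A/B.4.2 and 6.85 to 8.24 with shARID1B.2, and between 0.70 and 1.19 in the other 15 libraries. These sites were chosen for their differences, and their values describe them.

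Sites near regulators of the adrenergic and mesenchymal states were counted next, from lists of genes named for each state. Of 602 sites nearest the 22 adrenergic regulators, 46 (7.64%) were lower and 2 higher, with a median log2 change of -0.06, against 3.40% lower and a median of 0.01 over all sites. The lower sites were spread over 17 genes, among them DACH1 (6 of 36 sites), KLF13 (5 of 29), EYA1 (5 of 54), TFAP2B (5 of 69) and PBX3 (4 of 28). Of 415 sites nearest the 22 mesenchymal regulators, 8 (1.93%) were lower, 3 near SMAD3, 2 near TWIST1 and 1 each near FOSL2, SOX9 and TBX18, and 1 near PRRX1 was higher. No site of SNAI2 (40 sites), YAP1 (47 sites) or NOTCH2 (4 sites) was called. In the first pair 41 adrenergic and 14 mesenchymal sites were lower, both above the 2.92% of all sites. In the second 24 and 5 were lower, the adrenergic sites above and the mesenchymal ones below the 1.63% of all sites. The difference between the groups was not tested.

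The site outside promoters with the highest level near TBX2, a T-box factor of the adrenergic circuit, lay 15106 bases upstream in an intron of BCAS3. It held 20.4, 17.6 and 20.0 CPM with shARID1A.2, 11.8, 9.73 and 12.2 with shARID1A/B.2.3, 18.9, 18.4 and 18.1 with shARID1A.4, and 14.6, 12.8 and 13.5 with shARID1A/B.4.2. It was the single site among those chosen by level near 28 genes that fell in the added effect, by 0.62 on the log2 scale (SE 0.07, FDR = 3.85e-10), and in each pair (FDR = 7.25e-09 and 0.00541). Control held 26.8, 22.0 and 27.3 CPM, shARID1B.2 17.4, 22.3 and 20.5 and shARID1B.3 16.5, 15.7 and 13.5, so that only the shARID1B.2 libraries overlapped Control. Those near CDK6, a cell cycle kinase, and CDH2, the N-cadherin gene, rose by 0.29 ± 0.06 (FDR = 0.000452) and 0.24 ± 0.06 (FDR = 0.00535), the first called in the second pair alone (FDR = 0.000417) and the second in neither pair. The HAND2 promoter changed by 0.21 ± 0.06 (FDR = 0.0144), which missed the threshold. It passed with DESeq2 (FDR = 0.00721), total counts (0.000504), GC content offsets (0.00319) and a replicate block (0.00383). With promoter scaling (0.0179) and abundance-trended offsets (0.0166) it did not. The CDK6 call was lost without replicate 2 of shARID1A.2 and of shARID1A/B.2.3 together (FDR = 0.012). The CDH2 call was lost without any of 8 single libraries. The intronic ALK site, in a receptor kinase gene mutated in neuroblastoma, changed by 0.10 in the first pair (FDR = 0.578) and by -0.36 in the second (FDR = 0.00339). Sites near ARID1A and ARID1B, 4 and 12 in number, were not called in the added effect.

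The other lists are read against 3.40% of all sites lower and 0.343% higher. Focal adhesion genes had 13 of 167 sites lower (7.78%) and none higher, with sites near PARVA (3), VCL, LIMS1 and ACTN1 (2 each) among them. Integrins had 14 of 265 lower (5.28%) and 1 higher, 4 of the falls near ITGA1 and 3 near ITGAV. Cadherins had 43 of 890 lower (4.83%) and 5 higher, with 7 of 45 sites of CDH2 lower and 2 higher. Matrix genes had 18 of 616 lower (2.92%) and none higher. Catecholamine genes, which make and store noradrenaline, had 7 of 118 lower (5.93%) and none higher. In the first pair 11 of the 118 sites were lower, and in the second none. Receptor kinases and ligand receptors had 23 of 615 lower (3.74%) and 1 higher, AP-1 genes 2 of 45 lower (4.44%) and 1 higher, SWI/SNF subunit genes 6 of 369 lower (1.63%) and none higher, and cell cycle genes 2 of 165 lower (1.21%) and 4 higher. In the mean of both pairs, matrix, SWI/SNF and cell cycle genes were thus below the share of all sites, and receptor kinases near it. This placing did not hold in each pair, where 2.92% and 1.63% of all sites were lower. Matrix genes had 25 of 616 sites lower in the first pair, above its share, and 7 in the second, below it. Cadherins had 19 of 890 lower in the first pair, below its share, and 26 in the second, above it. The lists were chosen with earlier results of these data known. The study named integrins, cadherins and mesenchymal regulators from these libraries together with RNA-seq, with the combinations set against control. It also measured some of them as protein. The counts here are thus not independent evidence.

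By count, most lower sites lay near ALCAM, a cell adhesion molecule gene, with 20 of 91 sites lower and none higher, at a median of -0.27 over its sites. That was 22.0% of its sites, against 3.40% of all sites. LRP1B had 16 of 160, CADM1, another adhesion molecule gene, 15 of 116, LOC102724949 15 of 216, an RNA gene known by a clone name 15 of 220, LRRN3 14 of 67, PLA2G4A, a phospholipase gene, 14 of 246 and AUTS2, a gene of neuronal development, 13 of 79. The median log2 change over all sites of that RNA gene and of PLA2G4A was above 0, at 0.10 and 0.07. By share, UNC5B-AS1 led with 6 of 11 sites lower, followed by FILIP1L and RP11-95H3.1 with 5 of 10 each. Genes with many sites have more chances to be counted, and a site need not act on its nearest gene.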

How the data were processed

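ATAC-seq reads were aligned by the authors to GRCh38, sites were called on merged replicates, and the deposited tables hold raw read counts per site and library. HOMER annotation by the authors gave each site its nearest gene. For the aligner, the peak caller and a Tn5 shift, names and settings were not given in the sources used here. Fold changes, p-values and normalised columns that the authors made with DESeq2 were not used.

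Counts of all 21 libraries were fitted in edgeR 4.0.16 (R 4.3.3) with TMM scaling, filterByExpr at a minimum count of 10 and the quasi-likelihood test, without a block. Sites were called at a Benjamini-Hochberg FDR under 0.01 over all 357029 sites, and SE was derived from the F statistic. CPM used TMM-scaled library sizes, which assumes that most sites do not change. Depth, 16140029 to 40953070 reads in sites in the 12 libraries, limits calls at weak sites. Libraries are described as biological triplicates. The pipeline was tested on simulated data. Alternatives were DESeq2 1.42.0, other scalings, filters, thresholds and library sets.

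Named sites were the 8 largest falls and 8 largest rises called in both pairs with at least 1 CPM and no overlap of libraries, the most accessible sites of 28 fixed genes, and the sites with the largest differences between pairs or from ARID1B silencing alone. The PHOX2-type and NFI sites were added after their values were seen. The comparison, members, gene lists and motifs were chosen with earlier results of these data known. Results for some genes of the lists are not reported here.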

Additional observations from a re-analysis of the deposited data

Results flagged for a closer look

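The added effect differed between the hairpin pairs, by a test of the difference itself, at 2510 sites that were lower in the shARID1A/B.2.3 pair and 1619 that were lower in the shARID1A/B.4.2 pair. On the log2 scale the largest differences were -2.73 near HERC2P10, -2.68 near ADAMTS20 and -2.66 near RBM44, and 3.55 near TOP1, 2.98 near BTLA and 2.73 near LOC101928437. The pairs differ in both hairpins at once, so the ARID1A and the ARID1B hairpin cannot be told apart by this contrast.

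The added effect also differed from that of ARID1B silencing alone, by the interaction test, being lower at 1343 sites and higher at 501, a balance that turned to 708 and 836 with scaling on promoter sites. The largest departures were -2.55 near PDZRN4, -1.92 near RFPL1, -1.85 near MIR1261 and -1.78 near PRPS1L1, and 1.96 near LOC101928519, 1.70 near LOC101928426, 1.68 near ITGA4 and 1.61 near LOC102659288. At the PDZRN4 site shARID1A.4 held 2.61, 2.77 and 2.69 CPM against 0.63, 0.66 and 0.52 in Control, and shARID1A/B.4.2 held 0.90, 0.51 and 0.65.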

How the results depend on the processing

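Closing outnumbered opening in the added effect under every setting tried, with 82.0% to 94.8% of called sites lower. The median of all sites was 0.014 on the log2 scale and lay between -0.029 (scaling on promoter sites) and 0.028 (total counts). The cause of the shifts below was not tested. At an FDR under 0.05, 3769 sites were higher in the mean, 15759 lower and 3595 higher in the first pair, 8969 and 2372 in the second, 4565 and 2859 in the difference of pairs, 18944 and 10623 with ARID1B silencing alone, 3436 and 1452 in the departure from it. At that threshold 3276 were lower and 119 higher in both pairs, 576 opposite, and promoters were 13.7% of the higher sites. With a log2 change of at least 1 also required, the same counts were 1232 lower and 109 higher in the mean, 3263 and 318, 1715 and 286, 1450 and 956, 3184 and 533, 391 and 175, then 241, 2 and 15, with promoters 0.649% of the lower and 0.0% of the higher sites, 3 of 11 lists above the share of all sites, and 12 of the 16 largest changes still called.

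Rises depended on the scaling. Sites higher in the mean numbered 796 with DESeq2, 2019 with total counts, 811 with promoter scaling, 2299 with abundance-trended offsets and 1893 with GC offsets. Promoters were 19.6%, 27.6%, 18.5% and 19.4% of the higher sites with the first 4 of these, and 1.95%, 1.48% and 1.66% of the lower ones with promoter, abundance and GC settings. Sites higher in both pairs numbered 104, 118 and 112 with total counts, abundance and GC offsets. DESeq2 gave 754 higher in the first pair and 326 departing higher. Abundance offsets gave 2317 and 1669 higher in the pairs and 907 departing higher, and GC offsets 2196 departing lower. Promoter scaling gave 20590 lower and 2099 higher with ARID1B silencing alone, and turned the balance of the departures to 708 lower and 836 higher.

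Depth mattered for the falls of the first pair. With libraries thinned to equal depth it had 6700 lower, the difference of pairs 1637 lower, the departures 649 and 281, both pairs 1305 lower and 183 opposite, and promoters were 22.8% of the higher sites. Without replicate 2 of shARID1A.2 and of shARID1A/B.2.3 together, chosen after seeing the data, as were the settings for the counts shared between pairs, 770 were higher in the mean, 6605 lower and 537 higher in the first pair, 1773 higher in the second, 8358 higher with ARID1B silencing alone and 31 higher in both, with promoters 12.1% of the higher sites. The 12 libraries alone cannot give the effect of ARID1B silencing alone or the departure.

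Leaving out 1 library gave 9763 to 11696 lower and 773 to 1413 higher in the mean, 729 to 1266 higher in the first pair, and 3704 to 6246 lower and 602 to 1566 higher in the second. It gave 2510 to 5786 higher with ARID1B silencing alone, lowest without Control replicate 2, and 889 to 1739 lower and 320 to 512 higher in the departure, lowest without Control replicate 3 and 1. Sites higher in both pairs ranged from 35 to 63, lowest without shARID1A/B.2.3 replicate 2. Promoters were 0.955% to 1.38% of the lower and 9.53% to 28.9% of the higher sites. The promoter read share gained 0.969 to 1.528 points and lost its call without any of 8 libraries, which leaves fewer arrangements. The intron share changed by -1.192 to -0.932 points and lost its call without shARID1A/B.2.3 replicate 1 (adjusted p = 0.05), and the termination site share changed sign without shARID1A/B.2.3 replicate 2 (-0.021 to 0.012).

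Same-numbered libraries correlated in their deviations at 0.274, 0.45 and 0.17 in the first pair but at 0.00968, 0.059 and -0.00937 in the second, so the numbers were not taken as pairing. With a replicate block 12929 sites were lower and 1588 higher in the mean, and promoters were 20.7% of the higher sites. Permuted within replicate numbers, the promoter share (1.216 points) and the intron share (-1.065 points) had an exact p of 0.0312, the smallest that permutation can give (adjusted 0.0521). The exon share lost its call there too.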

Other observations

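Sites on 45 small contigs, 186 in all, have no gene annotation and entered no class above. Of these, 19 (10.2%) were higher in the added effect and none lower, with a median log2 change of 0.37 over the 186 sites and 4 higher in both pairs. They held 0.0383% to 0.0769% of the reads of the 12 libraries.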
